A study of Caenorhabditis elegans with 2 samples.

Results

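The genes described here are the protein-coding genes of Caenorhabditis elegans that carry a col name, most of which encode collagens of the cuticle. They were chosen by their name in the WBcel235 annotation, with earlier results of these data known. This gave 156 genes of 19973 protein-coding genes on the nuclear chromosomes. The data were binding sites of the zinc finger factor CES-1, a member of the Snail family, mapped by chromatin immunoprecipitation and sequencing (ChIP-seq) in mixed-stage embryos. Both samples were biological replicates of a single group. They came from strain OP174, which per the labels is mutant for unc-119(ed3) and carries the insertion wgIs174, with ces-1 fused to TY1, EGFP and FLAG beside a copy of unc-119. The material was whole animals of both sexes, of unknown age, and the antibody field names ces-1. The sources do not say what drives the tagged copy, how much of it is made or in which cells. No untreated, untagged or mutant group and no control list was analysed here, so no comparison between groups could be made and no test was run.

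Cuticle collagens are small proteins built around stretches of the triplet Gly-X-Y, which let chains wind around each other into a helix. The epidermis makes them in waves, first late in embryogenesis when the first cuticle is laid down and then before each moult. Many col genes are switched on only at one of these stages, and col-19, for example, is known as a collagen gene of the adult. The name is not fully specific, since col-99 encodes a transmembrane collagen known from neurons. The annotated coding sequence of 155 of the 156 genes held at least 10 Gly-X-Y triplets in a row, with a median of 21. The exception was col-17, whose annotated frame held no such run. The encoded proteins had a median length of 304 residues, from 154 to 740.

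A gene was counted as occupied when a peak summit lay in its promoter window, which reached from 1000 bp before an annotated 5′ end to 200 bp past it. Many worm transcripts are trans-spliced, so an annotated 5′ end is often not where transcription starts. The authors' thresholded list, made with a step that weighs how reproducible a peak is between replicates (irreproducible discovery rate, IDR), held 6290 peaks, 6273 of them nuclear. Of the 156 col genes, 9 were occupied in that list, or 5.77% (exact 95% interval 2.67 to 10.7). The share of all protein-coding genes occupied was 16.2%. The interval covers counting error only and treats neighbouring genes as independent. The strongest 6290 peaks of each replicate gave similar counts: 10 col genes in replicate 1 alone, against 16.3% of all genes, and 7 in replicate 2 alone, also against 16.3%. Replicate 1 added col-63, and replicate 2 lacked col-120 and col-157. The occupied col genes were col-71, col-8, col-38, col-55, col-2, col-120, col-185, col-111 and col-157.

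**Figure D1:**
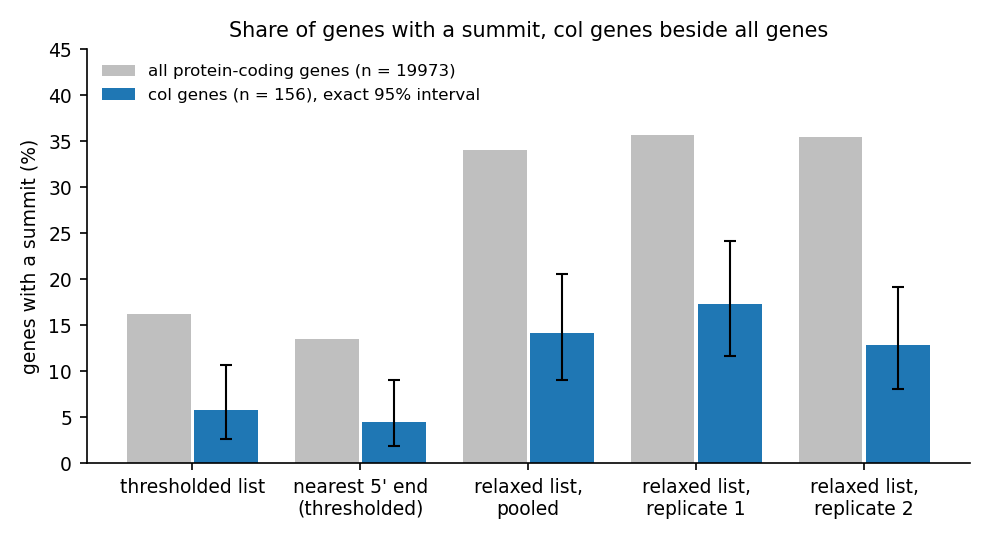
Share of col genes (blue, with exact 95% binomial intervals) and of all protein-coding genes (grey) with a summit, in percent, where the pairs from left to right count a thresholded summit in the promoter window, a 5′ end that is the nearest to a thresholded summit, and a relaxed-list summit in the promoter window for the pooled list and each replicate. The col share lies below the share of all genes in each list, for example 5.77% against 16.2% in the thresholded list.

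The 9 peaks fell into a single very strong one, 4 of middle strength and 4 close to the threshold. Signal is the peak caller's own value per peak, on a scale that is not stated. In the thresholded nuclear list it ran from 58.7 to 3177 around a median of 119.1, and the median of the 9 col peaks was 144.6. Between the replicates, the log2 ratio of signals over 5928 peaks found in both had an SD of 0.57. That SD was 0.31 in the strongest 20% of peaks and 0.79 in the weakest 20%. The median ratio of replicate 2 to replicate 1 was 0.15 on the log2 scale.

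The peak at col-71 stood far above the others. The gene (WBGene00000647) lies on the minus strand at chrII:3500077-3502570, and its peak at chrII:3502680-3503039 had its summit at 3502854, 284 bp upstream of the 5′ end. The signal was 955.8 in the pooled list, where it ranked 36, 480.1 in replicate 1 (rank 27) and 482.7 in replicate 2 (rank 42). Both replicates thus placed it among their 50 strongest entries, and their ratio was 0.01 on the log2 scale. It was 4.15 times as strong as the next col peak in the pooled list, 3.82 times in replicate 1 and 4.33 times in replicate 2. The pooled difference of 2.05 on the log2 scale exceeded the SD of 0.31 between replicates for strong peaks. The 5′ end of another gene, Y49F6B.2, lay nearer to the summit, at 114 bp. Y49F6B.2 points the other way from chrII:3502968-3504910, so that the summit lay between the starts of the pair, in the promoter windows of both.

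Of the 4 peaks of middle strength, 3 also lay nearer to the start of a neighbour with a basic function in the cell. At col-8 (WBGene00000597, minus strand, chrIII:7019583-7020600) the peak at chrIII:7021397-7021602 had a signal of 230.4 in the pooled list, 125.6 in replicate 1 and 111.6 in replicate 2. Its summit, 902 bp upstream of col-8, lay inside the divergent gene rfl-1, which encodes part of the enzyme that activates the ubiquitin-like protein NEDD8. The summit was in an intron, 296 bp past the outermost 5′ end of rfl-1 and 383 bp before another of its 5′ ends. At col-38 (WBGene00000615, minus strand, chrII:8568035-8569088) the peak at chrII:8569450-8569584 had a pooled signal of 215.9. The replicates gave 104.7 and 103.4, a ratio of −0.02 on the log2 scale. This summit lay 442 bp upstream of col-38 and 397 bp upstream of rpl-5, a gene of the large ribosomal subunit on the other strand. It also lay within the annotated non-coding genes F54C9.16 and F54C9.17.

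At col-2 (WBGene00000593, minus strand, chrIV:10084439-10085451) the peak at chrIV:10085686-10086075 had a signal of 144.6, with 82.9 in replicate 1 and 62.1 in replicate 2. Their ratio of −0.42 on the log2 scale was −0.57 after the median ratio was subtracted, about the size of the SD over all peaks. The summit lay 430 bp upstream of col-2 and 256 bp upstream of ndc-80, a kinetochore gene that starts on the other strand. For col-71, col-38 and col-2 the summit thus lay between 2 divergent starts, and for col-8 just past the start of the neighbour.

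The summit and 50 bp on either side of it are shown here for 5 of the 9 peaks. The letters under the stronger peaks at col-71, col-8 and col-2 can thus be set beside those under the weaker ones at col-111 and col-157. Of the other 4, those at col-38, col-120 and col-185 touch annotated exons and are not shown, nor is that at col-55. Each reads 5′ to 3′ on the strand of the col gene, with the summit at base 51, from the WBcel235 (ce11) reference sequence of RefSeq, and capitals mark E-boxes of the form CANNTG.

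col-71, chrII:3502804-3502904, minus strand: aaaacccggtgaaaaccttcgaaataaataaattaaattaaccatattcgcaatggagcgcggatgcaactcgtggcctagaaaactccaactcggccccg
col-8, chrIII:7021452-7021552, minus strand: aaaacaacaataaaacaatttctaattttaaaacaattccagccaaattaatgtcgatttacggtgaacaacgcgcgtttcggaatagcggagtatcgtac
col-2, chrIV:10085831-10085931, minus strand: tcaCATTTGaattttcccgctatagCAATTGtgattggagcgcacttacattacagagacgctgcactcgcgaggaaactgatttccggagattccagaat
col-111, chrIV:4658414-4658514, minus strand: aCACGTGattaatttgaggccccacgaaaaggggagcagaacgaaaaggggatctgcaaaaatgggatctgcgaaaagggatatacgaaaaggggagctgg
col-157, chrV:11483182-11483282, plus strand: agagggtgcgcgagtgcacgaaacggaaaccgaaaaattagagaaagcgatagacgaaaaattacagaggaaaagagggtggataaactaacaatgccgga

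Snail-family proteins are known to bind the E-box CAGGTG. None of the 9 windows of this kind held CAGGTG on either strand, which with 9 windows allows a share of up to 33.6% (exact 95% interval), and 1.80% of all 6273 thresholded summits did. Within 100 bp of the summit, 1 of the 9 held it, or 11.1% (exact 95% interval 0.281 to 48.2), against 3.43% of all. The general E-box CANNTG, which includes CAGGTG, was present in 3 of the 9, or 33.3% (exact 95% interval 7.49 to 70.1), against 34.9% of all summits. The window at col-2 held 2 of them, that at col-111 held 1 and that at col-120 held 1. The strongest window, at col-71, held none. GATAA, the core bound by GATA factors of the epidermis, was present only at col-157 among the 9, against 18.5% of all summits. GAGAG, a GA-rich repeat, was present at col-55 and col-185, against 37.2%. Neither TAATTA, the core of many homeodomain sites, nor the hexamer AGGTCA of nuclear receptors was found in the 9 windows, and they were in 8.59% and 2.09% of all. The share of G and C letters in the 9 windows lay between 32.7% and 51.5%, around a median of 41.6% for all summits.

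The 4 weakest peaks lay nearer to a col gene than to any other protein-coding start, but at a distance and often over other features. At col-120 (WBGene00000694, minus strand, chrIV:9260610-9261787) the peak at chrIV:9262508-9262897 had a pooled signal of 69.8. The replicates differed widely, with 47.4 in replicate 1 (rank 4002) and 17.6 in replicate 2 (rank 11201). That difference of −1.43 on the log2 scale is larger than the SD of 0.79 for weak peaks. The summit lay 916 bp upstream of the 5′ end, in an exon of the neighbour flh-1, which encodes a zinc finger factor of the FLYWCH type on the same strand. At col-185 (WBGene00000758, minus strand, chrX:13510035-13511097) the peak at chrX:13511835-13512224 had signals of 69.7 in the pooled list, 34.9 in replicate 1 and 39.5 in replicate 2. Its summit, 933 bp upstream, lay inside a tRNA gene, 11 bp from the 5′ end of that gene, and within the non-coding gene H06A10.3. Of the stretches of 31 letters in this peak, 16.1% occurred elsewhere in the genome.

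At col-111 (WBGene00000685, minus strand, chrIV:4655791-4657974) the peak at chrIV:4658269-4658658 had signals of 67.5 in the pooled list, 31.8 in replicate 1 and 46.9 in replicate 2. The summit lay 490 bp upstream of the nearest 5′ end. The sequence there is repetitive, and 20.8% of the 31-letter stretches in the peak occurred elsewhere. At col-157 (WBGene00000730, plus strand, chrV:11484042-11485039) the peak at chrV:11483037-11483426 had signals of 64.6 in the pooled list, 34.7 in replicate 1 and 28.7 in replicate 2. Its summit lay 810 bp upstream, farther than the 579 bp to the 5′ end of an annotated pseudogene (WBGene00011714), and 12.5% of its stretches were not unique. Of the 9 col peaks, 3 had over 10% of such stretches, against 3.36% of all thresholded peaks. All 3 belong to the 4 weakest, and reads from repeated sequence cannot be placed with certainty. Whether this bears on their signal was not tested.

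The remaining member, col-55 (WBGene00000632, plus strand, chrI:6199673-6200193), was the only one of the 5 with stronger peaks whose own start was the nearest. The peak at chrI:6198743-6199132 had a summit 735 bp upstream and signals of 175.7 in the pooled list, 76.9 in replicate 1 and 97.8 in replicate 2. No other protein-coding promoter window held the summit. The encoded protein, of 154 residues, was the shortest of all 156. The order of the 5 stronger peaks was partly kept in the replicates. All 5 lay at or above 76.9 in replicate 1 and 62.1 in replicate 2, and the 4 weaker ones at or below 47.4 and 46.9. These subsets were split by pooled signal, which comes from the same replicates, so their separation in each replicate is no independent support for the order. Of the 8 neighbouring pairs in the pooled order, 4 kept their order in both replicates. Apart from the gap after col-71 and the gap of 2.07 times between col-2 and col-120, no 2 neighbours in that order differed by more than 0.30 on the log2 scale, less than the SD between replicates for strong peaks.

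**Figure D2:**
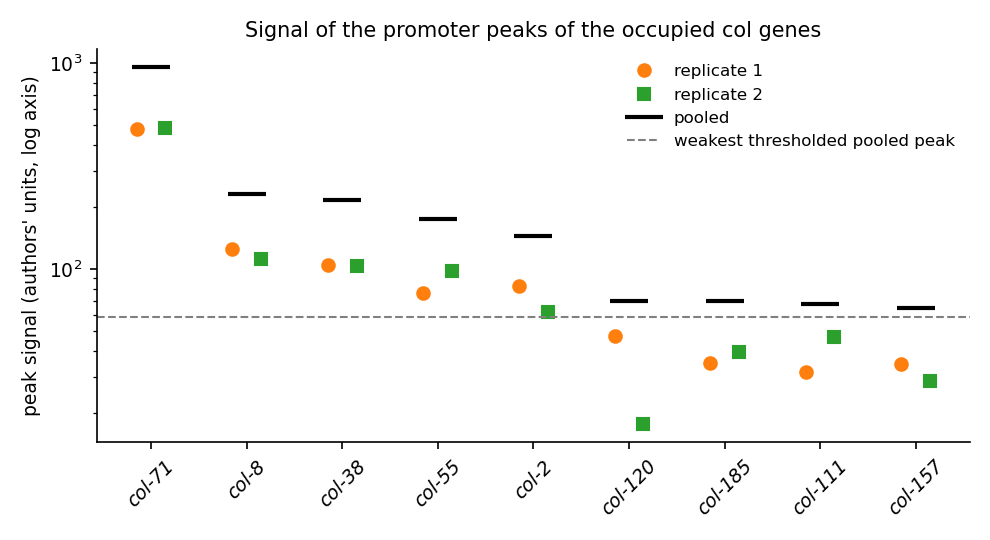
Signal of the promoter peak of each occupied col gene on a log axis, in the pooled list (black bars), replicate 1 (circles) and replicate 2 (squares), with the weakest thresholded pooled peak (58.7) as a dashed line. The col-71 peak (955.8) stands apart in both replicates, and col-120 shows the widest gap between them (47.4 and 17.6).

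**Figure D3:**
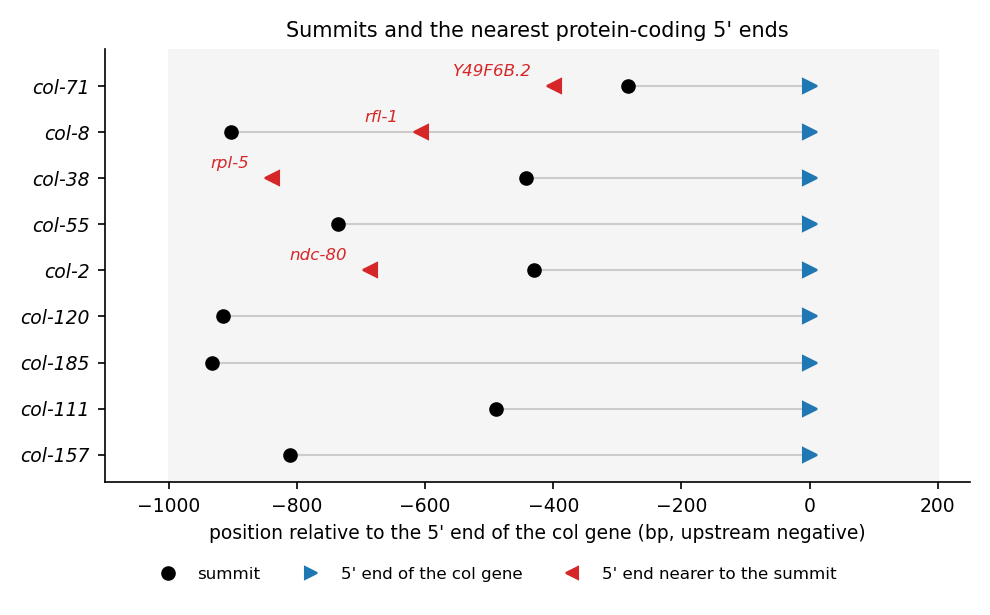
Summits (black circles) and 5′ ends (triangles) at the 9 occupied col genes, in bp relative to the 5′ end of the col gene, with the promoter window shaded. For col-71, col-8, col-38 and col-2 the start of another gene (red) lies nearer to the summit than the col start (blue), at 114, 296, 397 and 256 bp; the 5′ end of rfl-1 that lies before the summit is not drawn.

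How often a col start was the nearest protein-coding start to a summit was then counted, which does not show which gene a summit serves. Over all col genes, 7 had a 5′ end that was the nearest protein-coding one to a thresholded summit and within 1000 bp of it, or 4.49% (exact 95% interval 1.82 to 9.03), while 13.5% of all protein-coding genes had one. These were 5 of the 9 occupied genes and, from summits inside the gene, col-72 and col-85. Of the 9 occupied col genes, 4 were nearest to none of the summits, while over all genes 710 of the 3229 occupied ones were. An opposite-strand start within 1000 bp upstream was present for 24 col genes, and 4 of these, or 16.7%, were occupied, against 33.5% of all genes so arranged. Of the 132 col genes without such a start, 5, or 3.79%, were occupied, against 12.2%. The observed col share was thus below that of all genes in both arrangements. No interval was computed for either, and 4 of 24 is a small count, so a difference among the 24 is not shown. This split was made after the values had been seen.

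Most other properties of the genes gave the same order. Of the 136 col genes with 1 annotated 5′ end, 5.88% were occupied, against 12.9% of all such genes. Of the 20 with more, 5.0% were, against 25.2%. Repeated sequence was not more frequent at col windows: over 20% of the 31-letter stretches occurred elsewhere in the windows of 12 col genes, or 7.69%, against 10.2% of all genes. Among these repeated windows the order was the other way, with 2 of 12 col genes occupied, or 16.7%, against 8.3% of all genes. Of the other 144 col genes, 4.86% were occupied, against 17.1% of all genes with windows of that kind. By chromosome, the occupied col genes were 1 of 21 on I, 2 of 24 on II, 1 of 12 on III, 3 of 41 on IV, 1 of 31 on V and 1 of 27 on X. The shares of all genes were 23.8%, 14%, 23.8%, 15.6%, 9.51% and 16.4% in the same order, above the col share on each. With 1 to 3 occupied col genes per chromosome and no intervals computed, no single chromosome shows a difference on its own. Many col genes lie in small clusters, and 50 of the 156 stand within 5000 bp of another. None of those 50 was occupied (exact 95% interval 0 to 7.11%), while 9 of the 106 others were, or 8.49% (3.96 to 15.5). The intervals overlap, and no comparable clusters of other genes were counted.

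Summits under the threshold were counted next. The relaxed pooled list, which the authors named as peaks and background, holds 30000 entries with a median signal of 24.3. In it 22 col genes had a summit in the window, or 14.1% (exact 95% interval 9.05 to 20.6), against 34.0% of all protein-coding genes. The relaxed list of replicate 1 had one at 27 col genes, against 35.7% of all, and that of replicate 2 at 20, against 35.5%. Of the 147 col genes without a thresholded summit, 13 had an entry in the pooled list. Another 7 had one in replicate 1 alone and 4 in replicate 2 alone. The other 123, or 83.7%, had none in any of the 3 lists, compared with 67.0% of the 16744 unoccupied protein-coding genes.

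The 13 pooled entries were weak. Their signals ran from 14 to 44.0 around a median of 18.5, against 21.8 for such entries at all unoccupied genes, and none reached 2 in the column that the peak format reserves for −log10 q. Of all protein-coding genes, 6799 had a relaxed pooled summit, 3469 had one that reached 2 and 3229 were occupied. Few unoccupied genes of any kind thus had one that reached 2, so its absence from the 13 does not set col genes apart. No source names the caller behind that column, and at the 9 occupied genes it did not rise with signal, with 2.27 at col-8 and 2.71 at the weaker col-120. Of the 13, 3, at col-68, col-35 and col-52, had a summit matched within 100 bp in both replicates, and 3 had one in neither. Of the latter, col-138 and col-108 still had a replicate 1 entry farther off in the window, 613 and 389 bp upstream (signals 15.39 and 15.05). No share over all genes is given here beside these matches. The strongest, 324 bp upstream of col-68 (chrII:104015-104404), had signals of 44.0 in the pooled list (rank 8020), 12.98 in replicate 1 and 23.1 in replicate 2. The next, 969 bp upstream of col-35 (chrI:7387709-7388098), had 40.0, 13.99 and 26.3 in the same order, and lay nearer to the start of C15A11.2. The other 11 lay at or below 26.05, the value at col-137. Just under it stood col-138 with 25.9, which had no match within 100 bp in either replicate. At col-36 the entry of 19.1 lay nearest to the 5′ end, at 149 bp. Between 16.03 and 19.04 lay those of col-7, col-45, col-156, col-103 and col-108, and for col-7 and col-45 another start was nearer. The weakest occupied gene, col-157, had 64.6, just above the weakest thresholded peak at 58.7.

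**Figure D4:**
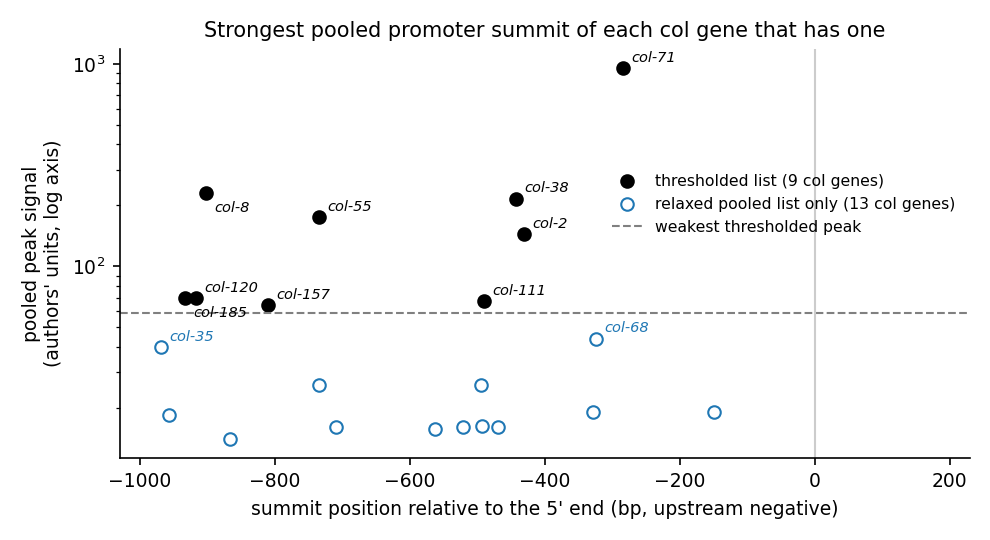
Position of the strongest pooled promoter summit relative to the 5′ end, in bp, and its signal on a log axis, for the 9 col genes with a thresholded summit (filled) and the 13 with an entry in the relaxed pooled list only (open). The open circles lie at 44.0 or below, under the weakest thresholded peak (58.7, dashed line), and no summit of either kind lies downstream of the 5′ end.

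Of the 3 members named whatever their values, none had a thresholded promoter peak. Neither col-19, the adult collagen gene, nor col-10 had a summit in the window in any of the 3 relaxed lists, and the nearest thresholded summits lay 11457 and 7556 bp from their 5′ ends. The transmembrane collagen gene col-99 had only weak window entries, of 16.01 in the pooled list (rank 25002) and 9.21 in replicate 1 (rank 27770). It did hold a thresholded summit deep inside the gene, in an intron 3959 bp past its start (chrIV:143765-144154), with signals of 130.9 in the pooled list, 57.5 in replicate 1 and 73.5 in replicate 2. In replicate 1 alone, col-63 also had a summit among the strongest 6290, with a signal of 38.8, and neither the pooled list nor replicate 2 had an entry there; it was named after its value had been seen.

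The edges of the window were examined with no test. Just inside it lay the summits of col-185 and col-120, 933 and 916 bp upstream. The nearest ones outside lay downstream, 386 bp past the 5′ end of col-85 (signal 114.8) and 455 bp past that of col-72 (77.2), both in introns. Next came col-181 at 1087 bp (400.6), col-52 at 1610 bp (104.5) and col-50 at 1640 bp downstream (174.8). In each of these cases the summit lay past the 3′ end of the annotated col gene. The summit near col-52 lay nearer to the homeobox gene ceh-17. Farther out, strong thresholded summits lay 1782 bp upstream of col-94 (441.8) and 2452 bp upstream of col-108 (683.6). The nearest protein-coding starts to them were those of col-94 and col-108, and col-94 was named after its value had been seen. Over all members, the 5′ end lay a median of 10580 bp from the nearest thresholded summit, against 8407 bp for all protein-coding genes. Within 5000 bp of a summit were 26.9% of col genes and 38% of all genes.

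Other genes of the cuticle and the epidermis were counted the same way. Of 20 cuticle collagen genes with names from mutant phenotypes, such as rol-6, sqt-3 and the dpy genes, 1 was occupied, or 5.0% (exact 95% interval 0.127 to 24.9), an interval that holds the 16.2% of all genes. It was bli-6, known from a blistered cuticle (chrIV:6376554-6376943, signal 174.9, with 95.6 and 78.0 in the replicates), and the start of hrpf-2 lay nearer, at 226 bp. None of 18 genes for other cuticle proteins, among them cuticlins and moulting proteins, was occupied, which leaves an exact 95% interval of 0 to 18.5% that also holds the share of all genes. Of 3 basement membrane collagen genes, 1 was occupied, or 33.3% (exact 95% interval 0.84 to 90.6), and this interval too holds the share of all genes. It was cle-1 (signal 90.4), which encodes a collagen of type XVIII.

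Enzymes that fold, cut and crosslink collagens were occupied at 3 of 18, or 16.7% (exact 95% interval 3.58 to 41.4). All 3 encode protein disulfide isomerases: pdi-2, whose product is also a subunit of the prolyl 4-hydroxylases of collagen, had a signal of 190.9 (chrX:4523869-4524003, 112.2 and 80.4 in the replicates). The signals at pdi-3 and pdi-6 were 181.4 and 128.9, and the start of ubql-1 lay nearer to the pdi-3 summit. Of 20 regulators of the epidermis and of moulting, 4 were occupied (exact 95% interval 5.73 to 43.7). These were the heterochronic RNA-binding gene lin-28 (222.6), the moulting regulator myrf-1 (138.9), the heterochronic gene lin-14 (94.9) and the nuclear receptor gene nhr-41 (64.4), and the share of all genes lay inside both intervals.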

How the data were processed

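Peak lists were used as deposited, on ce11 coordinates counted from 1. Per the labels and the notes deposited with the libraries, a relaxed list of peaks and background was made for each of 2 replicates and for both pooled, and an IDR step then kept the reproducible pooled peaks. Aligner, peak caller and read depth were not given in the sources used here. Signal values are the authors' own, from the deposited lists, and the −log10 q is the deposited column that the peak format reserves for it, with no caller named to define it; both served only to describe, rank and filter peaks.

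Genes and 5′ ends of protein-coding transcripts came from Ensembl release 115 (WBcel235), the build of the ce11 lists, and sequences from RefSeq's copy of that build. All 156 col genes had a start codon at the annotated coding start in that sequence. Summits in different lists were matched within 100 bp. Motifs were sought on both strands. A stretch of 31 letters was counted as repeated when it occurred more than once in the genome on either strand. Intervals are exact 95% binomial (Clopper-Pearson) intervals, from scipy 1.17.1 under Python 3.11.15, and cover counting error only. With 1 group and no control list, no test was run. Placement, nearest gene and matching were checked on simulated data.

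The members and the lists of other genes were chosen with earlier results of these data known. Named are all occupied col genes, the 10 unoccupied ones with the strongest relaxed entries, the 5 with the nearest summits outside the window, col-10, col-19 and col-99, genes nearer to a summit, and up to 4 occupied genes per list. In the lists, ram-4 had no match in the annotation. The splits by arrangement, repeats, chromosome and clusters were added after the values were seen. Alternatives covered windows, 5′ ends, peak sets, single replicates, the ce10 list and motif windows.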

Additional observations from a re-analysis of the deposited data

How the results depend on the processing

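No paired analysis was possible because both replicates form a single group. The count of 9 occupied col genes fell to 4 with a window of 500 bp upstream to 100 bp downstream (12.6% of all genes), to 5 with the 3145 strongest peaks (8.95%) and to 1, col-71, with the 500 strongest (1.27%). It lay between 9 and 12 with the wider window, the outermost 5′ end, peak overlap, the q filter and peaks found in both replicates. The shares of all genes in those settings ran from 14.9% to 21.2%. Without replicate 1 the count was 7 and without replicate 2 it was 10, each against 16.3%. The 7 col genes nearest to a summit became 4 when non-coding genes also competed (11.8% of all genes). With the 3145 strongest peaks they became 1 (7.36%). The 22 with a relaxed pooled entry became 12 with the narrower window (25.9% of all genes) and 35 with the wider one (42.5%). With a −log10 q of at least 2 they became 9 (17.4%), the same genes as in the thresholded list. In each of these settings the col share stayed below that of all genes. The median signal of the col peaks was 107.2 on ce10, where the col-8 peak had no match of equal width and summit offset and only 8 peaks entered. Of the 9 col summits, CANNTG was at 1 within 25 bp (18.8% of all summits) and at 5 within 100 bp (56.1%). CAGGTG alone was at 0 within 50 bp (1.80%) and at 1 within 100 bp (3.43%). Smaller windows and shorter lists hold fewer summits by construction, and no further cause was tested. The peak lists give no read counts, so depth limits every statement on unoccupied genes.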
